A study of Mus musculus with 16 samples.

Results

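Interferon-stimulated genes are genes whose transcription rises when a cell senses an interferon, and this account follows 40 of them in mouse kidney RNA-seq libraries. They were taken by gene symbol from the deposited matrix of normalized counts and kept where the value was at least 10 in at least 4 of the 16 libraries. All 40 met that rule, among 18035 genes that met it and 20525 genes listed. The member nearest to the limit was Mx1, whose lowest value in any library was 8.34. Mice of strain background C56BL/6, 8 weeks old, were either WT or C3-/-; by label the latter lack C3, the complement protein whose cleavage all routes of complement activation share. Glycerol mice received 7.5 ml/kg of 50% glycerol into a thigh muscle, which breaks down muscle (rhabdomyolysis) and injures the kidney, and control mice received PBS. There were 4 libraries in each of the 4 groups (each genotype after PBS and after glycerol), made from RNA of 30 µm frozen kidney sections. Sex and the time between injection and sampling are not stated, nor that each library is a separate animal, so p-values measure the spread between these libraries.

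Type I interferons bind the receptor IFNAR on nearly every cell type, and the kinases JAK1 and TYK2 on its tails phosphorylate STAT proteins, STAT2 among them. These join IRF9 in a complex that binds the interferon-stimulated response element (ISRE), while interferon gamma acts through a different site (GAS). The genes behind these sites encode RNA sensors, nucleases and other antiviral proteins, GTPases that attack vacuoles, and the proteasome subunits and transporter that feed antigen presentation. In injured kidney the pathway is known in tubule cells, endothelium and infiltrating leukocytes, which homogenized tissue mixes: in such bulk samples fewer cells of a type and less RNA per cell cannot be told apart.

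Several libraries stood apart from their groups. The sample descriptions number 13 libraries from 1 to 13 and repeat 3, 4 and 5 on another 3 (replicate 4 of WT glycerol, replicates 1 and 3 of C3-/- glycerol). Those 3 libraries are called the second number run here, although the labels do not say what the numbers record. They held the 3 highest scores on the first principal component (96.4 to 220.4, against -58.6 to 39.5 in the other libraries), which carried 45% of the variance. Genes listed at 0 numbered 3374 in WT glycerol replicate 4 and 190 to 982 in the others, and the deposited values summed to 25.81 M to 38.39 M per library. The Y-linked gene Ddx3y was at most 1.12 in 5 libraries labelled C3-/- (PBS replicates 1 to 3, glycerol replicates 1 and 2), where Xist was 16098 to 35410, and lay between 481.5 and 2302 in the 3 other C3-/- libraries and all 8 WT libraries. Counts of 6 proximal tubule markers summed to 183534 to 267850 in the 8 PBS libraries and 16756 to 86582 in 7 glycerol libraries. In C3-/- glycerol replicate 3 they summed to 237420, within the PBS range. There Slc34a1 (158390), Slc5a2 and Slc22a6 lay above every PBS library. Lrp2 (26641), Cubn (5139) and Slc6a19 (3659) lay below every PBS library. C3 itself had values of 334.9 to 470.5 in WT PBS, 1712 to 4718 in WT glycerol, 563.8 to 1140 in C3-/- PBS and 1457 to 8008 in C3-/- glycerol. The gene's transcript was thus not lower in the libraries labelled C3-/-, and because the labels do not say which part of the gene the mutant lacks, a value per gene does not check the genotype. C3-/- below means the libraries so labelled.

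The letters of an ISRE were searched in the RefSeq promoter windows of GRCm38.p6 (250 bases before to 50 after each start), which matched 30 of the 40 members. The letters were GAAA, any 2 bases and GAAA again, on either strand, and 16 of the 30 members (53.3%) held it in a window, against 3.99% of 27025 genes with a window. The GAS letters, TTC, any 3 bases and GAA, searched on both strands and without removing overlaps with the ISRE, were in 9 of the 30 (30%), against 9.55% of all genes. The stretches below belong to genes described further on. Their first motif base lay 20 (Oas1a), 78 (Isg15), 104 (Ifit1), 120 (Rsad2), 130 (Bst2), 156 (Ifit3) and 188 (Ifit3b) bases before the start. Capitals mark the ISRE match or run of overlapping matches; TTTC, 2 bases and TTTC is the same motif read on the opposite strand.
Isg15: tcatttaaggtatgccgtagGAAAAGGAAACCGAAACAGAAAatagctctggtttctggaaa
Oas1a: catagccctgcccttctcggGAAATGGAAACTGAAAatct
Bst2: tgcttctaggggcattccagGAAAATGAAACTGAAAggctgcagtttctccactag
Ifit1: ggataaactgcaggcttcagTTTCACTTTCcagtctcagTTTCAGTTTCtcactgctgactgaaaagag
Ifit3: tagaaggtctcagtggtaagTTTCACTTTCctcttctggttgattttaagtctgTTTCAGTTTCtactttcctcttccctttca
Ifit3b: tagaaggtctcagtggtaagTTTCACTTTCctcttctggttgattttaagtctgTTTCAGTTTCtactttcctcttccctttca
Rsad2: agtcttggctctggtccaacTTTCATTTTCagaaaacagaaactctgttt

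The Isg15 stretch lies at chr4:156200855-156200916 on the minus strand and holds 3 overlapping matches, the first base 78 bases before the start. Oas1a has 2 overlapping matches at chr5:120907526-120907565 and Bst2 has 2 at chr8:71537567-71537622, both on the minus strand. The Ifit1 stretch, chr19:34640765-34640833 on the plus strand, has 2 separate matches. Ifit3 (chr19:34583353-34583436) and Ifit3b (chr19:34607749-34607832), neighbouring copies on the plus strand, carry the same 84 bases. Rsad2 has 1 match at chr12:26456543-26456592 on the minus strand. The motif did not sort the genes by their response: it was in 5 of the 12 matched members that rose after glycerol in WT, in 1 of the 2 that fell and in 10 of the 16 that did not pass the test.

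In WT kidney, glycerol raised a wide part of the set. Limma's moderated test on log2(value + 1), fitted over all 18035 genes with Benjamini-Hochberg adjustment and a threshold of 0.05, called 14 of the 40 members higher (35%) and 2 lower (5%), where 12.5% of all genes were called higher and 13.3% lower. The 14 were Oasl1, Isg15, Zbp1, Ifitm3, Bst2, Ifi35, Oasl2, Irf9, Psmb8, Ifit1, Oas1a, Mx1, Tap1 and Psmb10, and the 2 that fell were Cmpk2 and Rsad2. The median log2 fold change of the members was 0.66, beside -0.11 over all genes. The 4 glycerol libraries lay above all 4 PBS libraries for 20 members and below them for 4, against 18.2% and 22.4% of all genes. In the 13 libraries of the first number run alone, 25 members were called higher and 4 lower (26.7% and 28.9% of all genes) and the median was 0.55. With the number run and the presence of Y-linked transcripts as covariates, 23 were higher and 4 lower (23.1% and 26.2% of all genes). Of single libraries left out, WT PBS replicate 1 gave the smallest count (8 called), and WT PBS replicates 2 and 4 and WT glycerol replicate 2 gave 9 each.

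**Figure D1:**
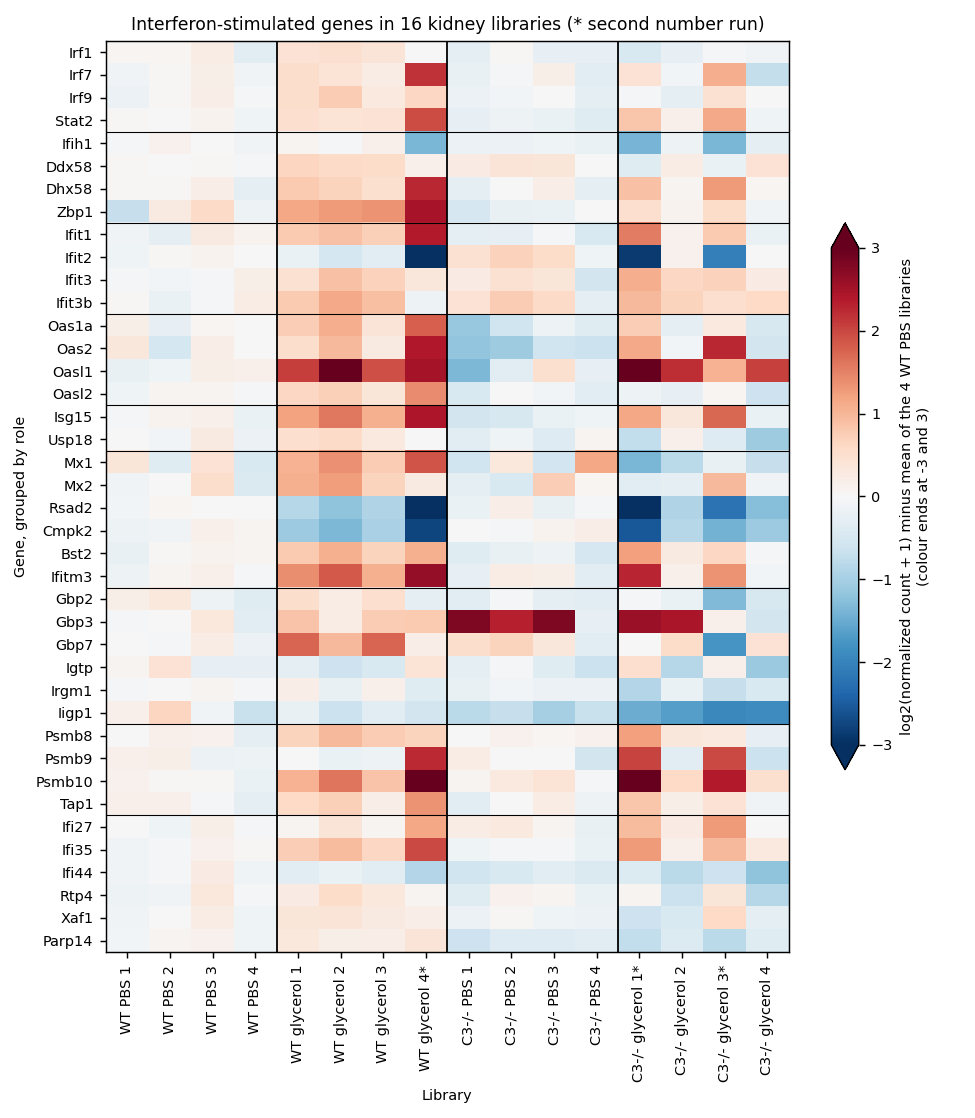
Log2(normalized count + 1) of each of the 40 genes (rows, by role) in each of the 16 libraries (columns, by group), minus the mean of the 4 WT PBS libraries; the colour scale ends at -3 and 3. Cmpk2 and Rsad2 are low in all 8 glycerol libraries, while Psmb9, Psmb10 and Oas2 are highest in the 3 libraries of the second number run.

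In C3-/- kidney, the same treatment moved few members past the test. Oasl1 and Bst2 rose and Cmpk2 and Iigp1 fell, so 5% of the members were called in each direction, where 3.68% of all genes were called higher and 1.96% lower. The median log2 fold change was 0.11, beside -0.06 over all genes. Glycerol libraries lay wholly above PBS libraries for 6 members and wholly below for 3, against 9.53% and 9.71% of all genes. Oasl1, Bst2 and Cmpk2 were called in the same direction in both genotypes, which is 3 of the 16 members called in WT and 3 of the 4 called in C3-/-; 23 members were called in neither. Over all genes 876 were called in the same direction in both, 18.8% of those called in WT and 86.2% of those called in C3-/-. In the first number run, with 2 C3-/- glycerol libraries, Oasl1 and Ifi35 were higher and Cmpk2, Rsad2, Iigp1, Ifi44, Rtp4 and Igtp lower (12.4% and 10.6% of all genes). With both covariates 3 members were higher and 4 lower (10.3% and 8.47%). The count of 4 rested on single libraries: it was 11 without WT glycerol replicate 4, 7 without C3-/- glycerol replicate 4, 2 without C3-/- PBS replicate 3 or C3-/- glycerol replicate 1, and 1 without C3-/- PBS replicate 1, 2 or 4. It was 3 without C3-/- glycerol replicate 3, the library with a proximal tubule sum in the PBS range. When only the 8 C3-/- libraries were fitted, it was 0.

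**Figure D2:**
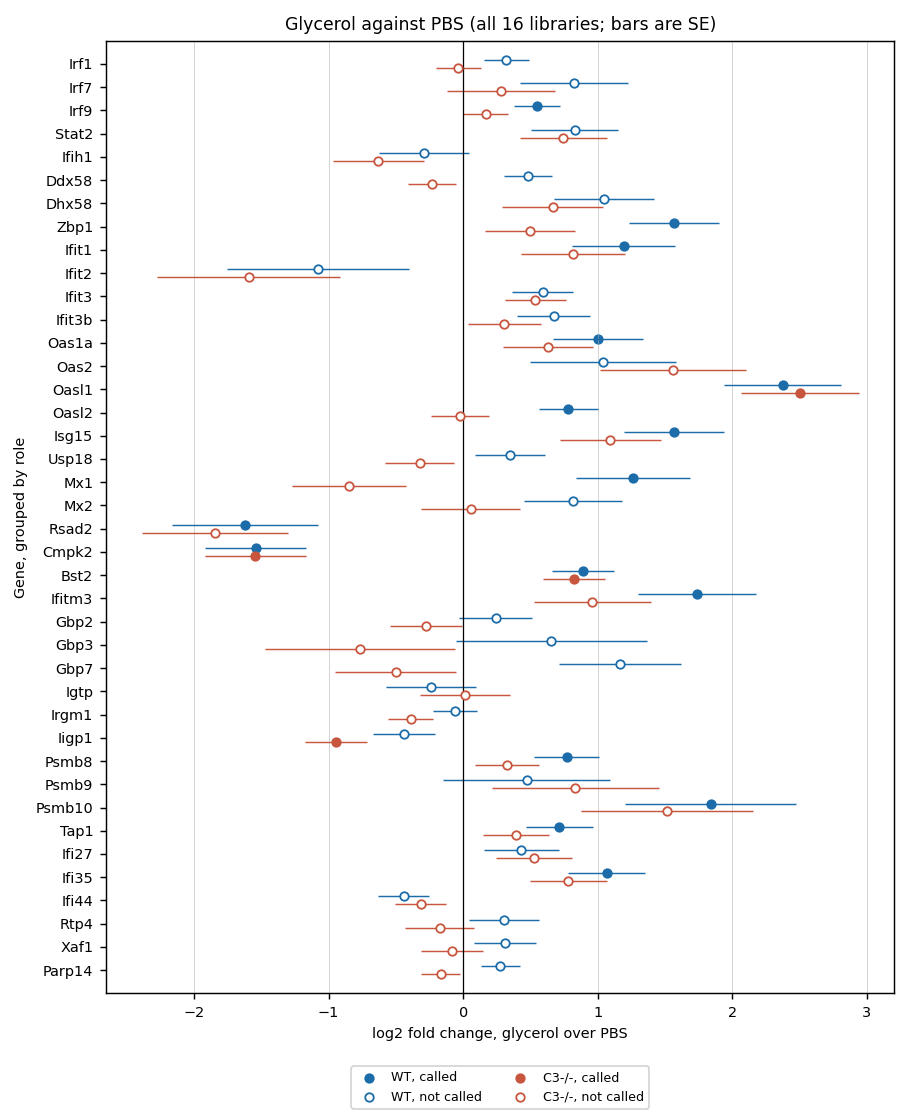
Log2 fold change of glycerol over PBS (horizontal axis, with its standard error) for the 40 genes in WT and C3-/- kidney, from the fit on all 16 libraries; filled points passed the adjusted p threshold of 0.05. In WT 32 points lie above 0, in C3-/- 22, and Oasl1 is the highest in both.

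After glycerol, 6 members were lower in C3-/- than in WT libraries: Parp14, Iigp1, Mx1, Oasl2, Zbp1 and Usp18. They are 15% of the members, against 4.85% of all genes called lower, and limma called 0 members higher, against 6.38% of all genes. Of the 40 fold changes, 34 were negative, with a median of -0.49 beside 0.04 over all genes, and 16 members had an unadjusted p under 0.05, each with a negative fold change, where 11.2% of all genes had such a p with a negative fold change and 13.4% with a positive one. All 4 C3-/- glycerol libraries lay below all 4 WT glycerol libraries for 6 members and above them for 0, against 5.07% and 6.21% of all genes. Within the first number run, which leaves 3 WT and 2 C3-/- glycerol libraries, 28 members were lower and 0 higher, against 14.6% and 15.5% of all genes. With both covariates 26 were lower and 0 higher, against 14.3% and 19.3%. The presence of Y-linked transcripts varied only among C3-/- libraries, and the number run only among glycerol libraries. The fit with covariates therefore assumes that each has the same effect in every group, which was not tested. The count was 12 without WT glycerol replicate 4 and 10 without C3-/- glycerol replicate 1. When only the 8 glycerol libraries were fitted it was 1, that of Iigp1. This comparison uses the same WT and C3-/- glycerol libraries as the responses above, so it is not separate evidence.

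**Figure D3:**
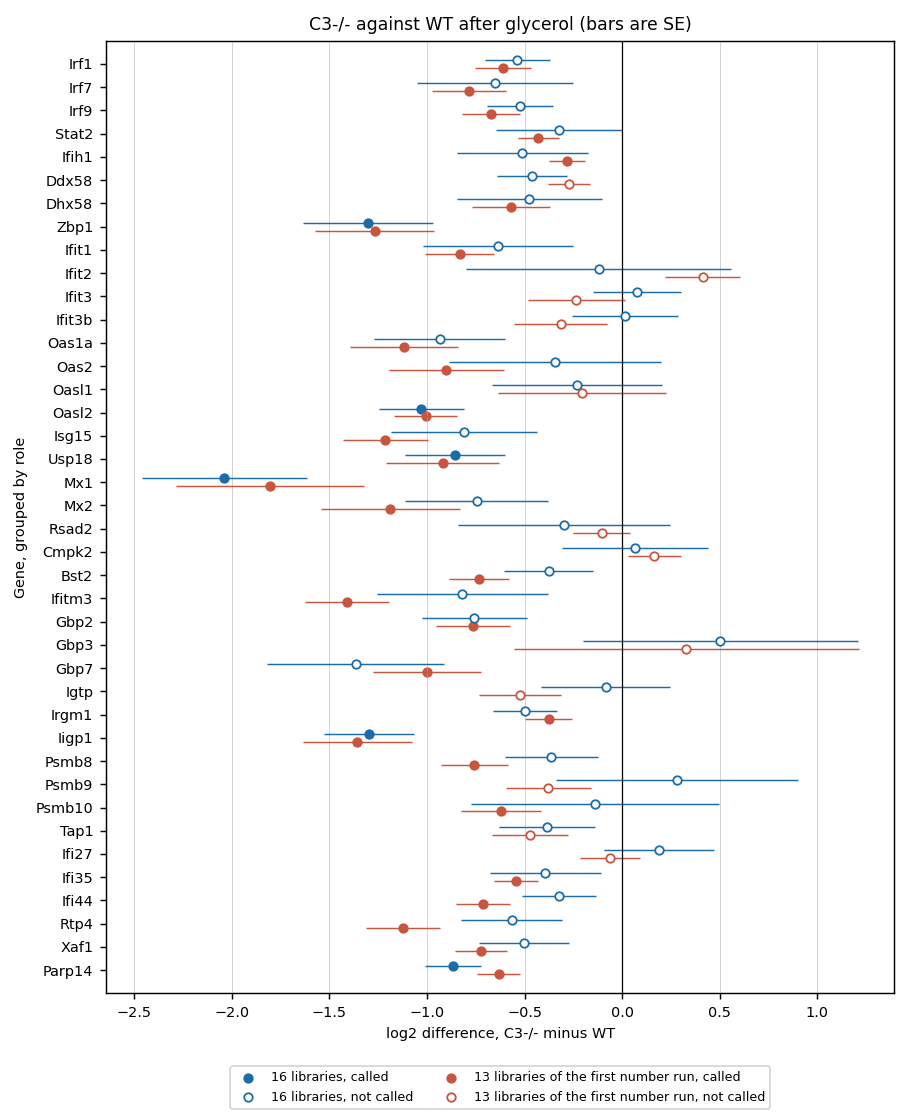
Log2 fold change of C3-/- over WT glycerol libraries (horizontal axis, with its standard error) for the 40 genes, from all 16 libraries and from the 13 libraries of the first number run; filled points passed the adjusted p threshold of 0.05. With all libraries 6 genes passed, all below 0; in the first number run 28 did.

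Between the genotypes after PBS limma called 0 members, where 1.04% of all genes were higher and 1.19% lower in C3-/-; 4 members had an unadjusted p under 0.05, 3 of them lower and 1 higher in C3-/-, where 5.61% and 4.84% of all genes did. The C3-/- libraries lay wholly below the WT libraries for 6 members and wholly above for 0, against 13.1% and 13.9% of all genes. Within the first number run, which holds all 8 PBS libraries, Iigp1, Parp14, Ifi44 and Oas2 were called lower (10% of members and 10% of all genes, while 9.29% of all genes were called higher), with log2 fold changes of -0.79, -0.42, -0.45 and -0.87. With both covariates limma called 0 members, against 1.38% of all genes higher and 2.11% lower. The test of the difference between the glycerol responses of the genotypes also called 0 members, against 0.222% of all genes higher and 0.216% lower, and gave an unadjusted p under 0.05 for 6, all with a smaller response in C3-/-, where 4.87% of all genes had a smaller and 5.6% a larger one at that p. The largest such difference was that of Mx1, -2.11 ± 0.60 (SE) on the log2 scale with an adjusted p of 0.149. In the first number run 7 members (Ddx58, Oasl2, Gbp7, Psmb8, Rtp4, Ifitm3 and Xaf1) had a smaller response in C3-/- past the threshold, against 5.42% of all genes (4.88% had a larger one), and with both covariates 6 did (Mx1, Ddx58, Oasl2, Gbp7, Zbp1 and Ifitm3), against 3.79% (4.97% larger). A difference between the responses was thus called only in fits that set the second number run aside, model it or weight libraries.

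Among the regulators, Irf9 rose in WT and no regulator passed the test in C3-/-. Of all genes 12.5% were called higher and 13.3% lower in WT, and 3.68% and 1.96% in C3-/-. Irf9 encodes the DNA-binding subunit of the complex that occupies the ISRE. Its normalized counts were 536, 618, 695 and 578 in WT PBS replicates 1 to 4 and 867, 1021, 736 and 936 in WT glycerol. They were 536, 574, 597 and 490.3 in C3-/- PBS and 582, 498, 829 and 596 in C3-/- glycerol. Every WT glycerol library was above every WT PBS library, whereas only replicate 3 of C3-/- glycerol stood above its controls. The log2 fold change was 0.55 ± 0.17 (SE, adjusted p = 0.0265 by limma) in WT and 0.17 ± 0.17 in C3-/-. Stat2, a partner of Irf9 in that complex, was at 725, 703, 764 and 642 in WT PBS and at 1000.4, 941, 955 and 2769 in WT glycerol. In C3-/- it was at 593, 635, 619 and 548 after PBS and at 1264, 790.3, 1563 and 649 after glycerol. The highest glycerol values of Stat2 in both genotypes were in the second number run, and its WT fold change of 0.83 ± 0.32 missed the threshold in all libraries (adjusted p = 0.0736) and passed it in the first number run (0.45, adjusted p = 0.000905). Irf7, the factor that amplifies interferon transcription, had WT and C3-/- fold changes of 0.83 and 0.28. Those of Irf1, which acts downstream of interferon gamma, were 0.32 and -0.03. Neither gene passed the test with all libraries. In WT limma called Irf1 higher in the first number run (0.44, adjusted p = 0.00835) and with both covariates (0.38, adjusted p = 0.0321). The authors' deposited table lists Irf1 as lower in C3-/- after glycerol (log2 fold change -0.57), where limma gave an adjusted p of 0.0504.

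Of the sensors, Zbp1, which recognises Z-form nucleic acid and can start necroptosis, rose in WT and was lower in C3-/- than in WT after glycerol. Its values were 25.5, 50.8, 63.3 and 38.0 in WT PBS and 95.5, 104, 109 and 239.6 in WT glycerol. In C3-/- they were 29.3, 36.2, 36.6 and 41.6 after PBS and 60.2, 45.3, 62.5 and 38.9 after glycerol. The WT glycerol libraries overlapped no other group. The log2 fold change was 1.57 ± 0.33 (SE, adjusted p = 0.00334) for glycerol in WT, 0.50 ± 0.33 (adjusted p = 0.339) for glycerol in C3-/-, and -1.30 ± 0.33 (adjusted p = 0.0196) between the genotypes after glycerol. Ddx58, which encodes the RNA sensor RIG-I, did not pass the test with all libraries. It was at 835, 803, 829 and 778 in WT PBS and 1276, 1215, 1189 and 898 in WT glycerol. The C3-/- values were 967, 1052, 1045 and 821 after PBS and 631, 944, 706 and 1091 after glycerol. In the first number run its WT fold change was 0.60 (adjusted p = 0.000133) and its C3-/- fold change 0.07 (adjusted p = 0.666), and the difference between these, -0.53, had an adjusted p of 0.0308. Dhx58, a regulator of RIG-I-like sensing, and Ifih1, which encodes the sensor MDA5, had WT fold changes of 1.05 and -0.29. Both missed the threshold with all libraries. In the first number run limma gave 0.64 (adjusted p = 0.00625) for Dhx58 and 0.07 (adjusted p = 0.478) for Ifih1.

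The IFIT proteins bind foreign RNA ends and hold back translation. Ifit1 rose in WT, from 150.1, 136, 196 and 175 after PBS to 279, 302, 269 and 856 after glycerol (log2 fold change 1.19 ± 0.39, adjusted p = 0.033). In C3-/- Ifit1 was at 134, 136, 159 and 118 after PBS and at 473, 178, 279 and 141 after glycerol, and the fold change of 0.82 ± 0.39 missed the threshold (adjusted p = 0.204). Without WT glycerol replicate 4, at 856, the WT call was lost, and in the first number run the fold change was 0.79 with an adjusted p of 0.000646. Ifit3, the partner that stabilises IFIT complexes, was at 969, 935, 947 and 1130.1 in WT PBS and 1354, 1824, 1613 and 1256 in WT glycerol. The C3-/- libraries had 1175, 1359, 1286 and 678 after PBS and 2121, 1533, 1607 and 1184 after glycerol. Fold changes of 0.59 and 0.54 had adjusted p-values of 0.0661 and 0.163, and the near-identical copy Ifit3b, with which reads could be shared, had 0.67 and 0.31. In the first number run limma called both higher in WT (Ifit3 0.68, adjusted p = 0.0146, Ifit3b 0.95, adjusted p = 0.00148), where 26.7% of all genes were called higher. With both covariates limma also called both higher in WT (adjusted p = 0.00884 and 0.00758). In C3-/- limma called 0 of the 4 family members in the first number run, where 12.4% of all genes were called higher. Ifit2 had negative fold changes, -1.08 in WT and -1.59 in C3-/-. With all libraries no member of this family passed the test between the genotypes after glycerol, where 6.38% of all genes were called higher and 4.85% lower. There Ifit1 was called lower in C3-/- in the first number run (-0.83, adjusted p = 0.00448) and with both covariates (-1.19, adjusted p = 0.000213).

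The OAS group gave the largest rise of the set. Oasl1, a catalytically inactive relative of the oligoadenylate synthetases that holds back translation of Irf7, was at 39.2, 41.9, 51.2 and 51.2 in WT PBS and 197, 370.4, 176 and 262 in WT glycerol. In C3-/- it was at 17.3, 35.9, 64.2 and 38.4 after PBS and at 449, 215, 94.6 and 191 after glycerol. No glycerol library overlapped a PBS library in either genotype. The log2 fold change was 2.38 ± 0.44 (adjusted p = 0.00123) in WT and 2.50 ± 0.44 (adjusted p = 0.00362) in C3-/-, and the difference between them was 0.13 ± 0.62 (adjusted p = 0.992). Oasl2, a relative that retains activity, was at 285, 326, 330.5 and 301 in WT PBS and 478, 511, 402 and 830.5 in WT glycerol. Its C3-/- values were 224, 306, 292 and 247 after PBS and 277, 262, 321 and 201 after glycerol, so that the C3-/- glycerol libraries overlapped the PBS libraries of both genotypes and no WT glycerol library. The fold change was 0.78 ± 0.22 (adjusted p = 0.0155) in WT and -0.02 ± 0.22 in C3-/-, and -1.03 ± 0.22 (adjusted p = 0.00614) between the genotypes after glycerol. Oas1a, a synthetase whose product activates RNase L, was at 91.6, 68.2, 85.3 and 82.8 in WT PBS and 136, 174, 107 and 287 in WT glycerol. After PBS the C3-/- values were 36.4, 53.5, 73.2 and 63.6, and after glycerol 137, 66.9, 100.03 and 58.0. The WT change of 1.00 ± 0.34 passed the test (adjusted p = 0.0386) and the C3-/- change of 0.63 ± 0.34 missed it. Oas2 reached 468 in WT glycerol replicate 4 against 106 to 174 in the other 3, and 195 and 429 in C3-/- glycerol replicates 1 and 3 against 83.1 and 60.2. Its WT fold change of 1.04 ± 0.54 did not pass. In C3-/- every glycerol library lay above every PBS library (38.6 to 58.3). Limma gave no call there with all libraries, while the authors' deposited table listed Oas2 as higher (log2 fold change 1.97).

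Isg15, the ubiquitin-like protein that is attached to newly made proteins, rose in WT. It was at 69.4, 78.0, 81.5 and 63.1 in WT PBS and 168, 218, 153 and 395 in WT glycerol. The C3-/- values were 49.2, 52.0, 63.1 and 66.5 after PBS and 164, 92.0, 243 and 63.0 after glycerol, where replicate 4 lay among the controls. The fold change was 1.57 ± 0.37 (adjusted p = 0.00675) in WT and 1.09 ± 0.37 (adjusted p = 0.0973) in C3-/-. Usp18, which removes ISG15 and dampens receptor signalling, was at 85.6, 82.1, 104 and 77.2 in WT PBS and 124, 129, 107 and 87.0 in WT glycerol. In C3-/- it was at 68.9, 79.8, 66.2 and 92.4 after PBS and at 51.5, 96.4, 66.3 and 41.0 after glycerol. It was lower in C3-/- than in WT after glycerol (-0.86 ± 0.26, adjusted p = 0.043), with 1 C3-/- library above the lowest WT library. This call was lost in 16 of 24 alternative settings, in 14 of them by leaving out 1 library, and the adjusted p reached 0.334.

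The remaining antiviral effectors went in both directions. Ifitm3, which blocks virus entry at membranes, was at 601, 707, 746 and 639 in WT PBS and 1762, 2409, 1415 and 4203 in WT glycerol, a log2 fold change of 1.74 ± 0.44 (adjusted p = 0.00908). In C3-/- it was at 564, 787, 759 and 538 after PBS and at 3273, 740.2, 1711 and 629 after glycerol. The 2 high C3-/- values were those of the second number run and the other 2 lay within the PBS range: the C3-/- fold change was 0.96 (adjusted p = 0.19) with all libraries and 0.06 (adjusted p = 0.856) in the first number run, while that of WT was 1.44 (adjusted p = 3.28e-05) there. Bst2, known as tetherin, which holds budding virions on the cell, rose in both genotypes, by 0.89 ± 0.23 (adjusted p = 0.0101) in WT and 0.82 ± 0.23 (adjusted p = 0.0469) in C3-/-. Its C3-/- change was 0.41 with an adjusted p of 0.0629 in the first number run.

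Mx1 was at 30.5, 18.01, 31.9 and 16.8 in WT PBS and 48.8, 62.2, 40.3 and 88.4 in WT glycerol. In C3-/- it was at 15.2, 29.1, 15.2 and 53.3 after PBS and at 8.34, 12.9, 19.8 and 14.1 after glycerol. Every C3-/- glycerol library was below every WT glycerol library, and the difference of -2.04 ± 0.42 (adjusted p = 0.00562) was the largest among the members. Mx1 rose in WT by 1.26 (adjusted p = 0.0389), and its fold change in C3-/- was -0.85 (adjusted p = 0.225). Its paralog Mx2 was at 28.8, 31.7, 45.6 and 23.0 in WT PBS and 66.4, 76.5, 50.7 and 37.8 in WT glycerol, and at 25.9, 22.5, 53.0 and 32.4 in C3-/- PBS and 25.1, 26.0, 62.2 and 28.9 in C3-/- glycerol. With all libraries Mx2 passed no test.

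Rsad2 and Cmpk2 fell although both are classical interferon targets. They are neighbours on chromosome 12 (GRCm38, Rsad2 at chr12:26442746-26456452 on the minus strand and Cmpk2 at chr12:26469204-26479837 on the plus strand). Rsad2 encodes viperin, a radical SAM enzyme that makes a chain-terminating nucleotide, and Cmpk2 a mitochondrial nucleotide kinase. Cmpk2 was at 514, 530.0, 634 and 598 in WT PBS and 267, 222, 288 and 82.9 in WT glycerol. The C3-/- values were 564, 557, 607 and 656 after PBS and 96.3, 313, 212 and 265 after glycerol. Groups overlapped in neither genotype, and the fold change was -1.54 ± 0.38 (adjusted p = 0.0077) in WT and -1.55 ± 0.38 (adjusted p = 0.0258) in C3-/-. Rsad2 was 1319 to 1441 in WT PBS and 119 to 766 in WT glycerol, and 1181 to 1580.5 in C3-/- PBS and 141 to 743 in C3-/- glycerol. Its fold change was -1.62 (adjusted p = 0.0389) in WT and -1.85 (adjusted p = 0.059) in C3-/-, and in the first number run -0.98 (adjusted p = 2.96e-05) and -1.02 (adjusted p = 0.000302). The summed proximal tubule markers went from 195273 to 229983 in WT PBS to 16756 to 80733 in WT glycerol, and from 183534 to 267850 in C3-/- PBS to 48985 to 237420 in C3-/- glycerol. The highest of these glycerol sums was that of C3-/- replicate 3, a library of the second number run. Its proximal tubule markers lay on both sides of the PBS values. The part of proximal tubule cells in the result was not tested.

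**Figure D4:**
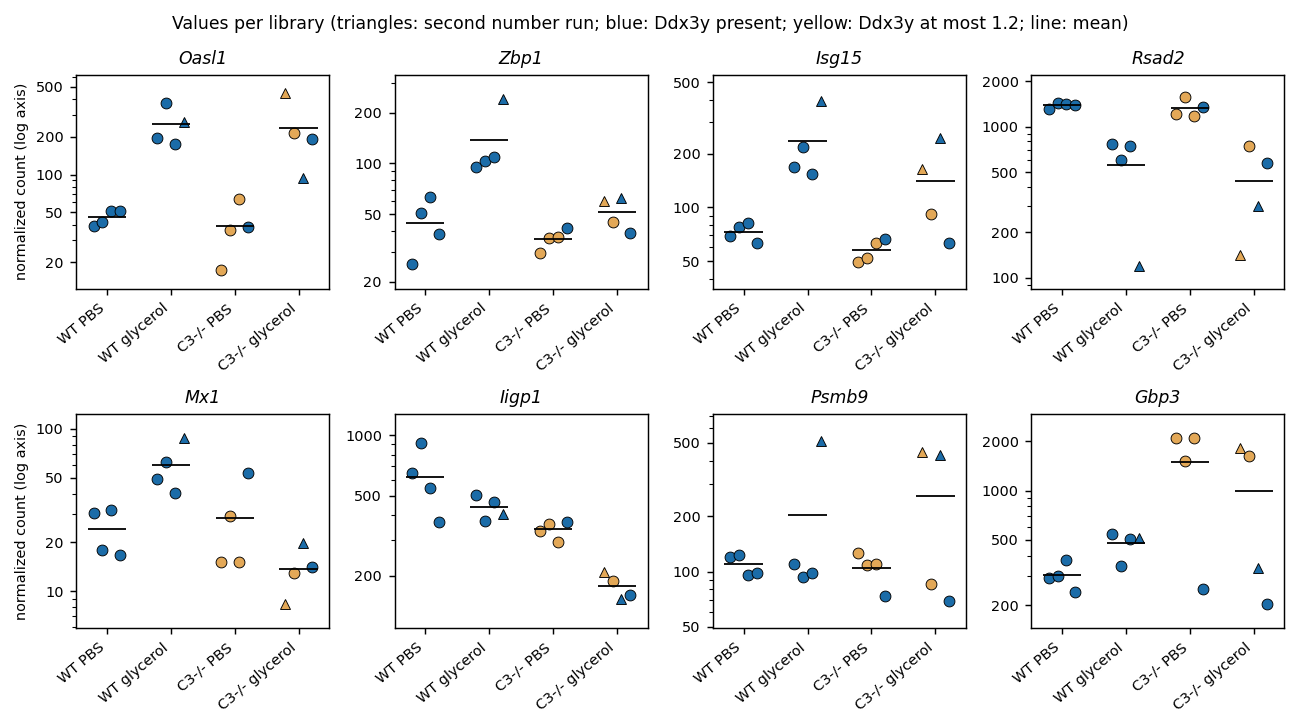
Normalized counts (log axis) of 8 of the genes in each library by group, with the group mean as a line; triangles are the 3 libraries of the second number run, and yellow marks the 5 libraries in which Ddx3y was at most 1.12. Oasl1 rose and Rsad2 was lower after glycerol in both genotypes, Mx1 and Iigp1 were lower in C3-/- glycerol libraries than in WT ones, and Gbp3 was at 1525 or more only in the 5 yellow libraries.

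The interferon-inducible GTPases of the GBP and IRG families, which coat and break vacuoles that hold pathogens, had no call in WT: limma called 0 of the 6, where 12.5% of all genes were called higher, and Gbp7 alone had an unadjusted p under 0.05. In the first number run Gbp2 (0.42, adjusted p = 0.0382) and Gbp7 were called higher in WT and Igtp lower (-0.45, adjusted p = 0.0451). Iigp1 was at 649.8, 913, 546 and 369 in WT PBS and 505, 376, 463 and 403 in WT glycerol. It was at 334, 363, 295 and 369.7 in C3-/- PBS and at 209, 187, 154 and 159 in C3-/- glycerol. The 4 C3-/- glycerol libraries were the lowest of all 16. Iigp1 fell in C3-/- (-0.94 ± 0.23, adjusted p = 0.0262), was lower in C3-/- than in WT after glycerol (-1.30 ± 0.23, adjusted p = 0.00201) and had a fold change of -0.79 ± 0.23 between the genotypes after PBS (adjusted p = 0.106). It was the 1 member whose call between the genotypes after glycerol held under all 25 alternative settings. Irgm1, a regulatory GTPase of the family, was at 1356, 1405, 1468 and 1347 in WT PBS and 1594, 1192, 1559 and 1081 in WT glycerol. The C3-/- values were 1185, 1321, 1235 and 1228 after PBS and 756, 1204, 866 and 1016 after glycerol, with no call in the fit on all libraries without covariates. With both covariates limma called all 6 GTPases, Irgm1 among them, lower in C3-/- than in WT after glycerol, against 14.3% of all genes. In the first number run 4 of the 6 were lower there, against 14.6% of all genes. Gbp7 had a WT fold change of 1.17 (adjusted p = 0.0712) with all libraries and 1.49 (adjusted p = 0.000171) in the first number run. Reads of the near-identical copies in these families could have been split between them, so single values are uncertain.

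Gbp3, chosen after its values were seen, divided the C3-/- libraries along another line. It was at 2101, 1525 and 2099.8 in C3-/- PBS replicates 1 to 3 and at 1812 and 1634 in C3-/- glycerol replicates 1 and 2, the 5 libraries without Ddx3y. In the 3 C3-/- libraries with Ddx3y it was at 251, 336 and 203, and in the 8 WT libraries between 242 and 544. The values with and without Ddx3y did not overlap in C3-/-, which was so for 1 of the 40 members, against 1.93% of all genes higher and 2.15% lower. All WT libraries had Ddx3y, so sex-linked and other differences between the C3-/- libraries cannot be told apart here. In the fit on all libraries without covariates, neither glycerol nor genotype gave a call for Gbp3. With both covariates limma called it higher after glycerol in WT (0.58, adjusted p = 0.016), where 23.1% of all genes were called higher. In that fit all 6 GTPases, Gbp3 among them, were lower in C3-/- than in WT after glycerol, against 14.3% of all genes.

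Of the 4 antigen processing genes, Psmb8, Tap1 and Psmb10 rose in WT, and Psmb9 did not pass the test (0.47, adjusted p = 0.597). The Tap1 call was lost in 15 of 25 alternative settings and that of Psmb10 in 12. In C3-/- limma called 0 of the 4, where 3.68% of all genes were called higher and 1.96% lower (12.5% and 13.3% in WT). Psmb10 alone had an unadjusted p under 0.05 there. Psmb8, a catalytic subunit of the immunoproteasome, was at 263, 293, 289 and 216 in WT PBS and 418, 520.2, 451 and 417 in WT glycerol (0.77 ± 0.24, adjusted p = 0.0283). Its C3-/- values were 264, 289, 274 and 289 after PBS and 622, 332, 323 and 223 after glycerol. Tap1, a subunit of the peptide transporter, was at 319.9, 321, 279.6 and 238 in WT PBS and 437, 475, 331 and 730.2 in WT glycerol. Its C3-/- values were 231, 288, 334 and 260.2 after PBS and 509, 328, 388 and 265 after glycerol. The Tap1 fold change was 0.72 (adjusted p = 0.0439) in WT and 0.39 (adjusted p = 0.311) in C3-/-. Psmb10, another catalytic subunit, was at 206, 195, 195 and 166 in WT PBS and 393, 582, 343 and 2772 in WT glycerol. In C3-/- it was at 202, 234, 253 and 183 after PBS and at 1919.5, 289, 994 and 267 after glycerol. Its 3 highest values were those of the second number run. The WT change of Psmb10 was 1.84 (adjusted p = 0.0451) with all libraries and 1.17 (adjusted p = 0.000102) in the first number run. Psmb9, the third inducible subunit, was at 513 in WT glycerol replicate 4 and at 444 and 430.5 in C3-/- glycerol replicates 1 and 3, and at 69.2 to 126 in the 13 libraries of the first number run, glycerol and PBS alike. The genes of Tap1 and Psmb9 overlap head to head (Tap1 begins at 34187553 and Psmb9 ends at 34187764 on chromosome 17), and no source used here says whether counting used strand. The constitutive counterparts Psmb5 and Psmb6 rose as well in WT (0.80 and 1.04, adjusted p = 0.0341 and 0.0285), and Psmb5 in C3-/- (1.503, adjusted p = 0.00354).

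Among the others, Ifi35, an adaptor released by injured cells, rose in WT and Parp14 was lower in C3-/-. Ifi35 was at 307, 315, 358 and 336 in WT PBS and 545, 631, 507 and 1292 in WT glycerol (1.07 ± 0.28, adjusted p = 0.0128). It was at 302, 316, 316 and 285 in C3-/- PBS and at 794, 368, 647 and 399 in C3-/- glycerol, where no library overlapped the controls but the change of 0.78 ± 0.28 had an adjusted p of 0.116. Parp14, a mono-ADP-ribosyltransferase, was at 711, 801, 829 and 691 in WT PBS and 944, 855, 875 and 996 in WT glycerol. Its C3-/- values were 492, 581, 581 and 607 after PBS and 449, 565, 428 and 583 after glycerol. All 8 C3-/- libraries lay below all 8 WT libraries, and the difference after glycerol was -0.87 ± 0.14 (adjusted p = 0.00123). After PBS it was -0.42 ± 0.14 (adjusted p = 0.188 with all libraries and 0.00517 in the first number run). Ifi27 was at 666, 605, 745 and 646 in WT PBS and 703, 872, 706 and 1489 in WT glycerol, and at 772, 809, 708 and 573 in C3-/- PBS and 1284, 787, 1617 and 665 in C3-/- glycerol, with no call. Ifi44, Rtp4 and Xaf1 passed no test with all libraries, and in the first number run each was lower in C3-/- after glycerol (-0.71, -1.12 and -0.72).

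The second number run differed from the first within the glycerol groups for many members. WT glycerol replicate 4 was above the mean of the other 3 WT glycerol libraries by more than 1 on the log2 scale for 12 members and below it by more than 1 for 6, where 21.4% and 29.9% of all genes did so. C3-/- glycerol replicates 1 and 3 exceeded replicates 2 and 4 by that much for 9 members and fell short for 5, where 19.3% and 22.7% of all genes did so. The range ran from -2.89 for Ifit2 to 2.69 for Psmb10 in WT and from -2.51 for Ifit2 to 2.49 for Psmb9 in C3-/-. Spearman's rho was taken across the 40 genes, all measured in the same libraries. Between the difference and the GC content of the gene's longest transcript it was 0.62 in each genotype (0.41 and 0.37 over all genes). With the length of that transcript rho was -0.26 in WT and -0.50 in C3-/- (-0.19 and -0.29 over all genes); genes are not independent replicates. Since all PBS libraries are in the first number run, what the second run adds cannot be compared in controls.

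Other genes of the pathway were tested by list, and their counts are to be read against the shares of all genes called: 12.5% higher and 13.3% lower after glycerol in WT, 3.68% and 1.96% in C3-/-, and 6.38% and 4.85% between the genotypes after glycerol. Of 6 interferon receptor genes 4 rose in WT: Ifngr2 (1.21, adjusted p = 0.000166), Ifnar1 (0.63, adjusted p = 0.00286), Ifngr1 (0.48, adjusted p = 0.0304) and Ifnlr1 (0.73, adjusted p = 0.0324), the receptor subunit of interferon lambda. In C3-/- 0 of the 6 passed limma's test and 3 had an unadjusted p under 0.05, and Ifngr2 was lower in C3-/- than in WT after glycerol (-0.87, adjusted p = 0.0037). The 21 interferon genes themselves were not analysed here. Of 12 other signalling genes 3 rose and 1 fell in WT and 1 rose in C3-/-. That was Socs3, a feedback inhibitor of cytokine receptors, at 50.4 to 74.9 in WT PBS and 1841 to 3165 in WT glycerol, and at 24.7 to 62.3 and 106 to 637 in C3-/-; it was lower in C3-/- after glycerol (-3.01, adjusted p = 0.000485). Of 13 genes that lead to interferon production 4 rose in WT and 1 in C3-/-, and 2 were lower in C3-/- after glycerol: Tmem173, which encodes STING, and Myd88, an adaptor of Toll-like receptors (-1.70 and -0.66). Of 76 further interferon-stimulated genes 13 rose and 7 fell in WT, 2 rose and 4 fell in C3-/-, and 1 was higher and 12 were lower in C3-/- after glycerol (1 and 36 in the first number run). The chemokine gene Cxcl10 was among those that rose in both genotypes, by 1.91 (adjusted p = 0.000288) in WT and 2.29 (adjusted p = 0.000343) in C3-/-. The gene that was higher in C3-/- after glycerol was Cxcl11, another chemokine gene (2.77, adjusted p = 0.0012). These lists were drawn up with results of these data known and are not independent evidence of their direction.

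Leukocyte markers differed in direction by cell type. Of 6 neutrophil markers 5 entered the test, 3 rose in WT and 4 were lower in C3-/- after glycerol, and 2 were lower in C3-/- after PBS (S100a8 and S100a9). Their summed level was 144 to 230.1 in WT PBS, 502 to 1154 in WT glycerol, 31.4 to 50.0 in C3-/- PBS and 67.9 to 226 in C3-/- glycerol, so no library of C3-/- glycerol reached a WT glycerol library. Among them Cxcr2 was listed at 0 in WT glycerol replicate 4, and Retnlg in C3-/- PBS replicate 4 and C3-/- glycerol replicate 3. The 4 monocyte markers summed to 1327 to 1513 in WT PBS, 1293 to 3808 in WT glycerol, 788 to 936 in C3-/- PBS and 489 to 1495 in C3-/- glycerol; 2 were lower in C3-/- after glycerol. The 8 macrophage markers summed to 3343 to 3653, 3425 to 4330, 3349 to 4450 and 3202 to 6378 in the same order. In WT glycerol Cd68 and C1qb were called higher and Csf1r lower, and between the genotypes after glycerol Csf1r was called higher and Mrc1 lower in C3-/-. The 10 T and NK cell markers, 6 of which entered the test, summed to 175 to 211 in WT PBS, 96.4 to 151 in WT glycerol, 90.2 to 102 in C3-/- PBS and 84.6 to 134 in C3-/- glycerol. Of these Cd3e was called lower after glycerol in WT, and Gzma lower in C3-/- than in WT after glycerol. The 4 B cell markers summed to 115 to 145, 48.6 to 80.7, 65.1 to 118 and 58.9 to 152 in the same order, with 0 called by limma and an unadjusted p under 0.05 for 3 after glycerol in WT. The 4 markers of plasmacytoid dendritic cells, the cells known for making most type I interferon, summed to 56.8 to 78.5 in WT PBS, 42.6 to 76.3 in WT glycerol, 40.8 to 58.0 in C3-/- PBS and 19.8 to 34.9 in C3-/- glycerol, with 0 called by limma in any comparison with all libraries. Tlr9 alone had an unadjusted p under 0.05 by limma, after glycerol in C3-/- (-2.41) and between the genotypes after glycerol (-2.19). It was 0 in C3-/- glycerol replicates 1 and 3, of the second number run, and 10.5 and 13.6 in replicates 2 and 4. With both covariates limma called Siglech lower in C3-/- than in WT after glycerol (-1.48, adjusted p = 0.0275). Siglech was at 13.2, 12.4, 7.68 and 67.8 in WT glycerol replicates 1 to 4, the last in the second number run. In C3-/- glycerol it was at 10.8, 7.52, 9.80 and 5.56. In the first number run limma called 0 of these 4 markers lower there, against 14.6% of all genes. The part of these cells in the changes of the 40 genes was not tested.

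The authors' deposited table of glycerol against PBS in WT called 20 of the 40 members higher and 2 lower at an adjusted p under 0.05, against 15.9% and 13.1% of its genes. Their deposited table for C3-/- called 7 higher and 3 lower (10.4% and 5.46% of its genes), and that for C3-/- against WT after glycerol 0 higher and 11 lower (9.56% and 7.25%). Every member called by limma in these comparisons, 16, 4 and 6 genes, was called in the same direction in the authors' deposited tables, which rest on the same libraries. Beyond limma's calls, the authors' deposited table listed Irf1, Irf9, Gbp2, Gbp7 and Irgm1 as lower in C3-/- after glycerol, with log2 fold changes between -0.50 and -1.27. For glycerol against PBS in C3-/- they also listed Oas2, Isg15, Ifitm3, Psmb10 and Ifi35 as higher (0.86 to 1.99) and Rsad2 as lower (-1.60). For glycerol against PBS in WT they also listed Stat2, Ddx58, Dhx58, Ifit3, Ifit3b and Gbp7 as higher (0.51 to 1.30).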

How the data were processed

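Kidney RNA-seq libraries of 4 groups were analysed. Reads were aligned with STAR 2.7.1 to GRCm38 and handled with DESeq2 in R 3.6.1, per the submitters' processing notes; the annotation was Ensembl release 96, per the file headers. The deposited signal values are counts per gene that the authors normalized with DESeq2 size factors, per the file headers; whole reads could not be recovered from them (1.78 to 2.11% of values per library were whole multiples within 0.01), so the depth in reads is unknown and a count model was not used. The authors' deposited tables give log2 fold changes with their errors, a test score (the Wald statistic of DESeq2), a mean signal and p-values (adjusted ones included), which are quoted as theirs.

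Values were analysed as log2(value + 1) with limma 3.58.1 in R 4.3.3 (mean-variance trend, 1 coefficient per group, all 16 libraries, genes of at least 10 in at least 4 libraries); 18035 genes entered and p-values were adjusted over all of them for each of the 5 contrasts. The call threshold was an adjusted p of 0.05. Fold changes are on the log2(value + 1) scale, which understates those of low genes. Values are not scaled to length, so levels were not compared between genes. Script steps were tested on simulated data. The 40 members, their roles and the pathway and marker lists were chosen with earlier results of these data known. Values in each library are given for the called members, at most 3 per role with the smallest p, and for the uncalled member of each role with the highest mean; full statistics for at most 12 called members per comparison. Other settings tried were another pseudocount (8), filter (none, or a mean of at least 100), quantile normalization, array weights, only the groups compared, the replicate number as a block, the number run and Y-linked transcripts as covariates, only the first number run, and each library left out. Gene positions are from GENCODE M21 (all 40 members matched) and promoter windows from RefSeq, GRCm38.p6.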

Additional observations from a re-analysis of the deposited data

Results flagged for a closer look

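Each member was checked in each group of 4 libraries for a highest or lowest value whose gap to its neighbour exceeded Dixon's 95% limit. Of 160 such groups 14 passed it, where chance gives about 1 in 20, and 10 of the 14 were in WT glycerol replicate 4, a library of the second number run. In that library Dhx58 was high at 279.8 (the other 3 libraries 79.6 to 98.5), Ifit1 at 856.0 (268.6 to 301.9), Irf7 at 1371.1 (353.0 to 436.3), Psmb9 at 513.4 (93.9 to 109.7), Stat2 at 2768.7 (940.8 to 1000.4) and Zbp1 at 239.6 (95.5 to 108.6). It was low for Ifih1 at 204.2 (519.2 to 586.0), Ifit2 at 58.4 (389.0 to 489.8), Irf1 at 470.7 (628.3 to 661.7) and Rsad2 at 119.1 (604.8 to 765.8).

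Gbp3 was low in C3-/- PBS replicate 4 at 250.8, where the other 3 libraries had 1524.5 to 2101.1, and in WT glycerol replicate 2 at 348.6 (509.5 to 544.4). Irf1 was high in C3-/- PBS replicate 2 at 489.3 (395.7 to 404.2), and Mx2 in C3-/- glycerol replicate 3 at 62.2 (25.1 to 28.9).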

How the results depend on the processing

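The count of members called was recomputed under 25 settings (24 for the difference between the responses, which needs all groups), and no called fold change reversed its sign in any of them. For glycerol in WT (16) it was 32 with array weights, 27 with covariates, 29 in the first number run, and 8 to 19 with a library left out. For glycerol in C3-/- (4) it was 12 with array weights, 0 with only the groups compared, 7 with covariates, 8 in the first number run, and 1 to 11 with a library left out. For C3-/- against WT after glycerol (6) it was 26 with array weights, 1 with only the groups compared, 26 with covariates, 28 in the first number run, and 5 to 12 with a library left out. For the genotypes after PBS (0) it was 15 with array weights, 6 with only the groups compared, 4 in the first number run, and 0 to 1 with a library left out. For the difference between the responses (0) it was 13 with array weights, 6 with covariates, 7 in the first number run, and 0 with any library left out. The other pseudocount, filters and quantile normalization kept every count within 1.5 times. The cause of these shifts was not tested.

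With the replicate number as a block the counts were 9, 2, 5, 0 and 0 in the same order. The numbers do not pair the libraries: over 24 same-numbered pairs the correlation of deviations ran from -0.69 to 0.38, and 3 of 16 libraries correlated best with a library of their own number.

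In WT the calls of Bst2, Cmpk2, Ifi35, Ifitm3, Isg15, Oasl1 and Oasl2 held under all 25 settings. Leaving out 1 library ended the call of Psmb8 in 3 cases, of Irf9 and Ifit1 in 4, of Mx1 and Oas1a in 7, of Rsad2 in 8, of Psmb10 in 10 and of Tap1 in 12. It ended the glycerol call in C3-/- of Iigp1 in 3 cases, of Cmpk2 in 5 and of Bst2 in 13, and the call of Usp18 between the genotypes after glycerol in 14. Since the depth in reads is unknown, no counting error can be given.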
